A study of Rattus norvegicus with 6 samples.

Results

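Carbonic anhydrases were followed here in the kidney cortex of rats dosed with dipropylene glycol (DPG), a glycol used as a solvent. The family members were Car2, Car3, Car4, Car5b, Car6, Car8, Car12, Car14 and Car15, which is 9 of the 15645 genes that could be named on the array. A probe belonged to a member if its RefSeq transcript, with the version dropped, was listed for that gene, and 14 probes did. The genes were chosen by family, with their measured DPG minus water differences on these same 6 arrays already known, so the differences given for these 9 genes are a description and carry no test. The DPG group was 3 male Sprague-Dawley (Crl:CD(SD)) rats given 1000 mg/kg/day, and the control group was 3 rats of the same strain and sex given water, both over 4 weeks. All 6 had been bought at 5 weeks of age and shared a basal diet. RNA from each animal's cortex was read on its own one-colour Agilent array, so n = 3 animals per group throughout.

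Carbonic anhydrases are zinc enzymes that interconvert carbon dioxide and bicarbonate. In the kidney, enzyme in the cytosol and on the cell surface lets tubule cells secrete acid and take bicarbonate back from the filtrate, most of it in the proximal tubule, and lets intercalated cells of the collecting duct adjust what is left. The isoforms differ in where they sit. Car2 and Car3 are cytosolic, Car5b is mitochondrial, Car6 is secreted, Car4 and Car15 are held on the outer membrane by a lipid anchor, Car12 and Car14 span the membrane with the active domain outside, and Car8 is a related protein without catalytic activity.

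Among the members, mitochondrial Car5b was higher in DPG rats, and secreted Car6, transmembrane Car12 and Car14, anchored Car4 and inactive Car8 were lower. Cytosolic Car2 and anchored Car15 lay close to the control level. These are single genes, and family genes outside the members, given below, did not follow the same classes. On the log2 scale the difference, DPG minus control, was 0.78 for Car5b, -0.68 for Car6, -0.39 for Car12, -0.32 for Car4, -0.29 for Car14, -0.24 for Car8, 0.05 for Car2 and -0.04 for Car15. Car3 was not well above background on any array. For 6 of the 8 measurable members, every DPG animal lay on the same side of every control animal, 1 gene higher in DPG and 5 lower. Across all 29647 features tested, 19.7% were separated in this way, with 10.7% higher and 8.96% lower in DPG. No feature passed limma's test at a Benjamini-Hochberg adjusted p of 0.05 (0% called, smallest adjusted p = 0.125), and so no member did. At an unadjusted p of 0.05, limma passed 3669 features, or 12.4%. Because the members were chosen with this contrast known, nothing is read from their count against these shares.

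Of the 61537 probes per array, from 41524 to 41937 were well above background in DPG arrays and from 39556 to 43184 in control arrays, and no spot was saturated. Control 3 had the fewest such probes and the most spots with outlier flags, 34, where no other array had more than 4. Pearson correlations across features lay between 0.989 and 0.994 for all pairs of arrays. Each group was hybridised on a slide of its own, so slide and treatment cannot be told apart. In bulk cortex, fewer cells of a type and less RNA per cell cannot be told apart either. Signals below are each spot's processed signal divided by the 75th percentile of its array, on a linear scale, while differences are on the log2 scale with the standard error (SE) from limma. Probes differ in how brightly they bind, so no order of abundance is drawn between genes.

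The sequence around the annotated start is shown for Car5b, which stood higher in DPG, and for the 3 membrane-bound members that stood lower, with CG dinucleotides in capitals. Promoter windows of 250 bases before to 50 bases after a start were listed by RefSeq on the assembly GRCr8 for 5 of the 9 members. Car5b lies at chrX:34118776-34119075 (+ strand), Car4 at chr10:70325108-70325407 (+), Car12 at chr8:76169565-76169864 (+) and Car14 at chr2:186138115-186138414 (- strand), each printed 5′ to 3′ on the strand of its gene.
Car5b: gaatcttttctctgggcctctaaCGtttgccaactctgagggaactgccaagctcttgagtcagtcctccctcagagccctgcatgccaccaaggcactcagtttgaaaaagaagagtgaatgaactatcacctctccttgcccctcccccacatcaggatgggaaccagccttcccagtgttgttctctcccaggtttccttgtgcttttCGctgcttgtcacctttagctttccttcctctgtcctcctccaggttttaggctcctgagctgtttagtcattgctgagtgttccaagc
Car4: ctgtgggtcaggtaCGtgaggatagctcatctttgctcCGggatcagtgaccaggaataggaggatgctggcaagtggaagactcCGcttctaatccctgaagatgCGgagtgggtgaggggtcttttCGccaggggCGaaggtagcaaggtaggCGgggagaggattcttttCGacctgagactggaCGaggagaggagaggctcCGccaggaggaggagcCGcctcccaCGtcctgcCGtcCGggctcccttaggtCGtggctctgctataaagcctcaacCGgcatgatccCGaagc
Car12: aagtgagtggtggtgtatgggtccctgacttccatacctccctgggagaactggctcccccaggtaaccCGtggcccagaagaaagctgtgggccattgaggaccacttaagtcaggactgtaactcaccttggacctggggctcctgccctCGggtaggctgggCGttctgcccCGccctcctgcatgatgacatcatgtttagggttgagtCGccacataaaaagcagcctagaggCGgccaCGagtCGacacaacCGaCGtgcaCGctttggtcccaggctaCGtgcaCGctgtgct
Car14: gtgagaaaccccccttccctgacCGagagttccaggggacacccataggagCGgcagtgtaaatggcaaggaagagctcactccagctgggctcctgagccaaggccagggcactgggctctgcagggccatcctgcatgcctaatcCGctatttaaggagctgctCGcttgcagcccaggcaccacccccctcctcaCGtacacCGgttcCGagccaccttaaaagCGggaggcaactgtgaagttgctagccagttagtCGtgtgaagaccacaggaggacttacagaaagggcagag
These windows differ in base composition. Car5b held 2 CG dinucleotides and 51.3% G and C, while Car4 held 17 and 59.7%, Car12 held 13 and 59.0%, and Car14 held 9 and 59.0%. The median over 33469 such windows of the rat was 7 CG dinucleotides and 51.7% G and C. Car15, whose groups overlapped, also held 2. The start used for Car5b lies 12473 bases inside the annotated gene, so other transcripts of the gene begin upstream of the window shown. The starts used for Car4 and Car12 lie 256 and 92 bases from the annotated 5′ end of their gene. Those for Car14 and Car15 lie at it. On either strand the letters TATAAA occurred in Car4 alone among the 5 members, 19 bases after the start, and in 14.2% of all windows. The letters GGGCGG occurred in Car12 alone, against 33.1% of all windows, and CCAAT in Car15 alone, against 37.5%. These matches describe the letters in the windows and are not binding sites.

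Car5b, which supplies bicarbonate inside mitochondria, had a signal of 4.52, 4.73 and 4.45 in DPG rats 1 to 3, against 2.74, 2.72 and 2.49 in control rats 1 to 3. The lowest DPG array was well above the highest control array, and the spread within each group was small beside the gap. The means were 4.56 ± 0.15 in DPG and 2.65 ± 0.14 in control (SD, n = 3 each), a 1.72-fold higher signal in DPG and a log2 difference of 0.78 ± 0.07 (SE). In absolute size, 2.05% of all features differed at least that much, and the same share was 3.04% for Car6, 9.98% for Car12, 14.9% for Car4, 16.8% for Car14, 23.2% for Car8, 76.3% for Car2 and 80.2% for Car15. This gene rests on 1 probe. Its mitochondrial relative Car5a, known from liver, had 1 probe that was not well above background on any array.

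**Figure D1:**
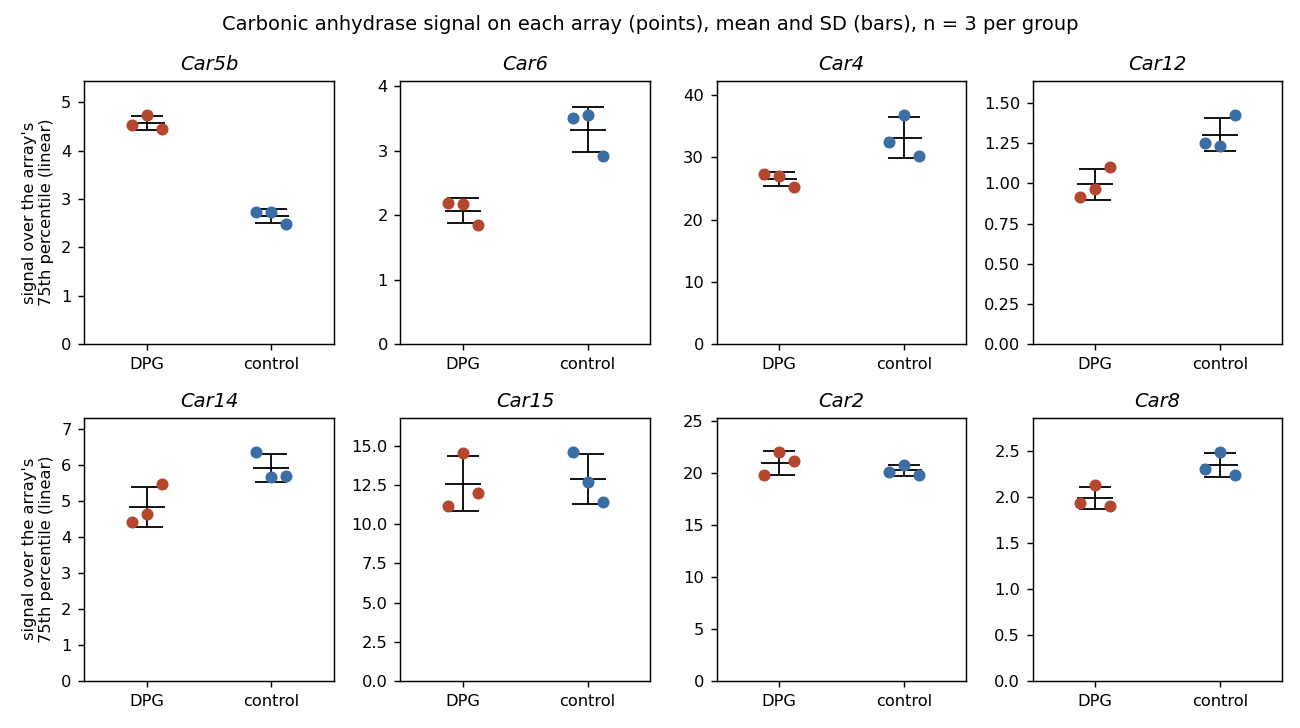
Signal of the 8 measurable carbonic anhydrase members on each array, as a multiple of the array's 75th percentile (linear axis from 0), DPG rats left and control rats right in each panel, with points for animals and bars for the mean and SD. Car5b lies higher in all DPG animals (4.45 to 4.73, against 2.49 to 2.74), Car6 lies lower in all of them (1.84 to 2.19, against 2.92 to 3.54), and the groups overlap for Car2 and Car15.

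Car6 is the secreted isoform, best known from saliva. Its brightest probe gave 2.19, 2.17 and 1.84 in DPG rats 1 to 3 and 3.51, 3.54 and 2.92 in control rats 1 to 3. Animal 3 was the lowest of its group on both sides, yet control 3 remained above every DPG rat. The mean was 2.07 ± 0.19 in DPG and 3.32 ± 0.35 in control (SD, n = 3 each), 1.61-fold lower in DPG, with a log2 difference of -0.68 ± 0.11 (SE). A second probe gave -0.72 ± 0.12, and the dimmest gave -0.38 ± 0.09. On the dimmest probe the DPG arrays lay at 0.215, 0.225 and 0.215 and the control arrays at 0.294, 0.307 and 0.253. All 3 probes placed every DPG animal below every control animal, and the dimmest put the signal 1.30-fold lower in DPG.

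Among the isoforms whose active domain faces outward, Car4, Car12 and Car14 lay lower in DPG and Car15 did not. Car4, the anchored enzyme of the proximal brush border, had 27.3, 27.0 and 25.3 in DPG rats, against 32.4, 36.7 and 30.2 in control rats. The DPG animals were tightly grouped and the control animals spread over a wider range above them, with means of 26.5 ± 1.1 and 33.1 ± 3.3 (SD, n = 3 each). The log2 difference was -0.32 ± 0.09 (SE), 1.24-fold lower in DPG, from 1 probe.

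Car12, a transmembrane enzyme, had 0.916, 0.967 and 1.10 in DPG rats and 1.25, 1.23 and 1.42 in control rats. Here animal 3 was the highest of both groups, the reverse of Car6. The log2 difference was -0.39 ± 0.10 (SE), 1.31-fold lower in DPG, and a second, dimmer probe gave -0.33 ± 0.09. The second probe ordered the groups in the same way, with 0.498, 0.469 and 0.559 in DPG and 0.606, 0.635 and 0.679 in control.

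Car14, the other transmembrane isoform and one also found along the proximal tubule, had 4.42, 4.64 and 5.48 in DPG rats, against 6.37, 5.69 and 5.71 in control rats. DPG 3 came close to controls 2 and 3, so the gap between the groups was the narrowest of the 3 lower membrane isoforms in relation to their spread. The log2 difference was -0.29 ± 0.11 (SE) from 1 probe, 1.23-fold lower in DPG. With normexp background correction, which starts from the raw median pixel signal, it was -0.43.

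Car15, the second anchored isoform, had 11.2, 14.5 and 12.0 in DPG rats and 14.6, 12.7 and 11.4 in control rats. The groups covered nearly the same range, and the log2 difference was -0.04 ± 0.14 (SE), with an SE larger than the difference. A second probe gave 3.48, 4.48 and 3.89 in DPG and 4.43, 3.95 and 3.41 in control, with a log2 difference of 0.01 ± 0.14 (SE). Both probes ranked the 3 animals of each group in the same order.

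Car2, the abundant cytosolic enzyme of tubule cells and red blood cells, had 19.8, 22.0 and 21.1 in DPG rats, against 20.1, 20.8 and 19.8 in control rats. The groups overlapped, with a log2 difference of 0.05 ± 0.07 (SE). Globin genes and other markers of red blood cells, which also hold Car2, had a summed signal of 666 to 775 in DPG rats and 631 to 744 in control rats over 7 of 8 markers, and their part in the Car2 value was not tested. Car3, a slow cytosolic enzyme abundant in muscle and fat, had processed signals of 4.72, 5.63 and 4.95 intensity units in DPG rats, against 8.96, 3.55 and 6.03 in control rats, before division by the 75th percentile. None of these was well above background, and no fold is given.

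Car8, which lacks enzyme activity and binds the inositol trisphosphate receptor, had 1.94, 2.13 and 1.91 in DPG rats and 2.31, 2.49 and 2.25 in control rats. Animal 2 was the highest on both sides, and the log2 difference was -0.24 ± 0.08 (SE), 1.18-fold lower in DPG. A second probe gave -0.22 ± 0.08, with 0.422, 0.476 and 0.449 in DPG against 0.513, 0.510 and 0.549 in control.

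Probes of a member agreed in direction for the 3 members with several probes that stood apart, Car6, Car8 and Car12, and differed in sign only for Car15. By gene, 6 of the 8 measurable members had a negative difference. By probe it was 10 of 13, but 4 members hold several probes, so probes are not separate observations. Nothing is read from either count, since the members were chosen with this contrast known. The median over the 8 measurable members was -0.27 (log2), where the median of all features was 0.00.

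**Figure D2:**
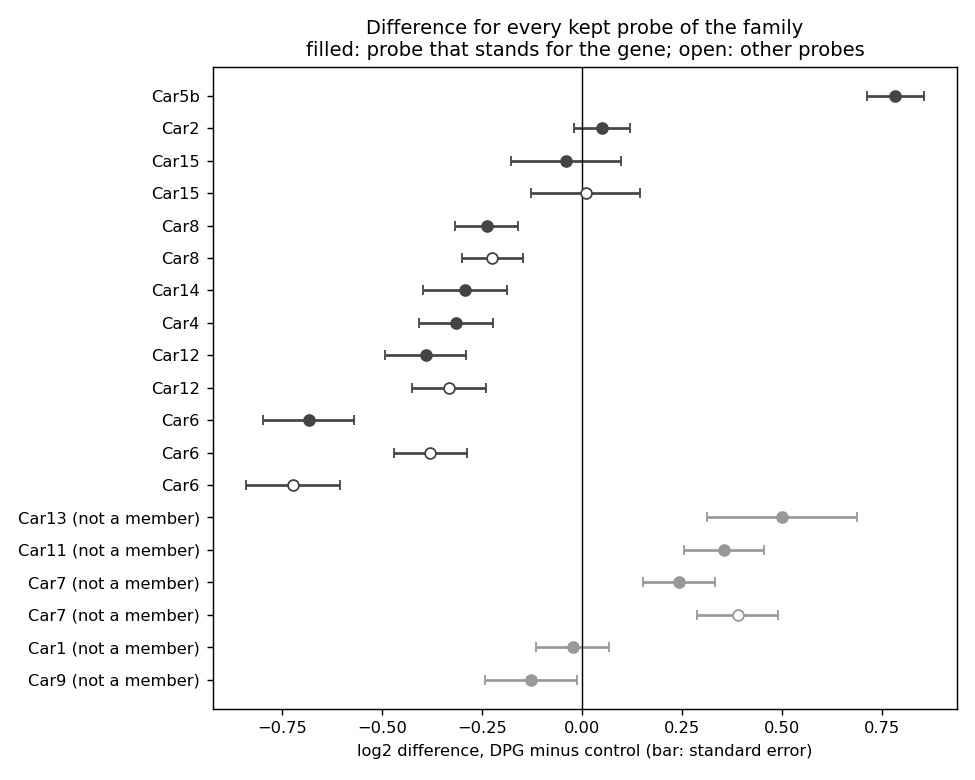
Log2 difference, DPG minus control, for every measurable probe of the carbonic anhydrase family, with bars for the standard error, filled points for the probe that stands for a gene and open points for its other probes. Car5b lies at 0.78 and the Car6 probes between -0.72 and -0.38, while Car13, Car11 and Car7, which are not members, lie between 0.24 and 0.50.

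Among carbonic anhydrases outside the 9 members, Car7 and Car11 lay higher in DPG at an unadjusted p of 0.05, and neither passed the adjusted threshold. Of 7 further carbonic anhydrases, 6 had a probe and 4 were well above background on all 6 arrays, and 2 of these 4 were higher at the unadjusted threshold (6.68% of all features were) and 0 were lower (5.70%). Car11, another relative without enzyme activity, averaged 2.81 ± 0.23 in DPG and 2.19 ± 0.19 in control (SD, n = 3 each), a log2 difference of 0.35 ± 0.10 (SE, limma adjusted p = 0.305). Cytosolic Car7 had 0.24 ± 0.09 (limma adjusted p = 0.382), and its dimmer probe read 0.39. Cytosolic Car13 had 0.50 ± 0.19 (SE, limma adjusted p = 0.381), but its probe cleared background in 3 DPG rats and 2 control rats, so it entered through the DPG group and is left out of the count. Car9, a transmembrane isoform induced by hypoxia, had -0.13 ± 0.11 (limma adjusted p = 0.680). With Car13 included, the median of the list was 0.24 and 3 genes passed the unadjusted threshold, against a median of 0.11 without it, and 1 gene passed with normexp correction (median 0.12), without DPG 1 or without control 1.

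Bicarbonate transporters, the partners that carry the product of the reaction across the membrane, went both ways. Of 14 genes, 11 were measured, 1 was higher and 2 were lower at an unadjusted p of 0.05 (6.68% and 5.70% of all features), and the median log2 difference was -0.09. That median was 0.02 without DPG 3 and -0.01 without control 2. The lower genes were Slc4a4, the basolateral sodium bicarbonate cotransporter of the proximal tubule, with 35.7 ± 3.6 in DPG and 44.0 ± 2.4 in control (SD, n = 3 each), and Slc26a4, the chloride bicarbonate exchanger pendrin, with 28.5 ± 3.6 in DPG and 37.8 ± 4.5 in control. Their log2 differences were -0.30 ± 0.10 and -0.40 ± 0.13 (SE, limma adjusted p = 0.338 and 0.347). Slc4a7, an electroneutral sodium bicarbonate cotransporter, had a dim signal of 0.104 ± 0.038 in DPG and 0.050 ± 0.011 in control, a log2 difference of 1.00 ± 0.31 (SE, limma adjusted p = 0.331). Slc4a2, an anion exchanger, had -0.18 ± 0.08 (limma adjusted p = 0.429). Without control 3, 0 of these transporters were past the unadjusted threshold, and without DPG 1 there was 1.

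Proton pump subunits lay mostly below 0, by small amounts. Of 21 measured, 18 had a negative difference and 4 were lower at an unadjusted p of 0.05 (5.70% of all features were) and 0 higher (6.68%), with a median of -0.08. Those 4 were Atp6v1c2 at -0.37 ± 0.09, Atp6v1b2 at -0.32 ± 0.09, Atp6v1g3 at -0.30 ± 0.11 and Atp6v0d2 at -0.23 ± 0.07 (SE, limma adjusted p from 0.286 to 0.373), all subunits of the vacuolar proton ATPase. The count of subunits past that threshold was 8 with normexp correction and 2 without DPG 1. None of the 5 measured sodium-proton exchangers and their scaffold passed an unadjusted p of 0.05 (median 0.13, and 0.03 without DPG 2 or without control 1). In this list the scaffold gene Nherf1 had 0.13 ± 0.09, Slc9a2 0.20 ± 0.16 and Slc9a8 0.13 ± 0.19 (SE).

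Enzymes that consume bicarbonate, the mitochondrial customers of Car5b among them, had a median of 0.01 over 8 of 9 genes. Mccc1, a subunit of the carboxylase of leucine breakdown, averaged 55.3 ± 6.4 in DPG and 41.6 ± 4.0 in control (SD, n = 3 each), a log2 difference of 0.41 ± 0.12 (SE, limma adjusted p = 0.317), and was the 1 gene of the 8 past an unadjusted p of 0.05, which 12.4% of all features passed. Without control 3 there were 2. Pccb, of propionate metabolism, had 0.12 ± 0.07, pyruvate carboxylase Pc -0.16 ± 0.10, and Acacb, which makes malonyl-CoA, 0.28 ± 0.17 (SE, limma adjusted p from 0.550 to 0.555).

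**Figure D3:**
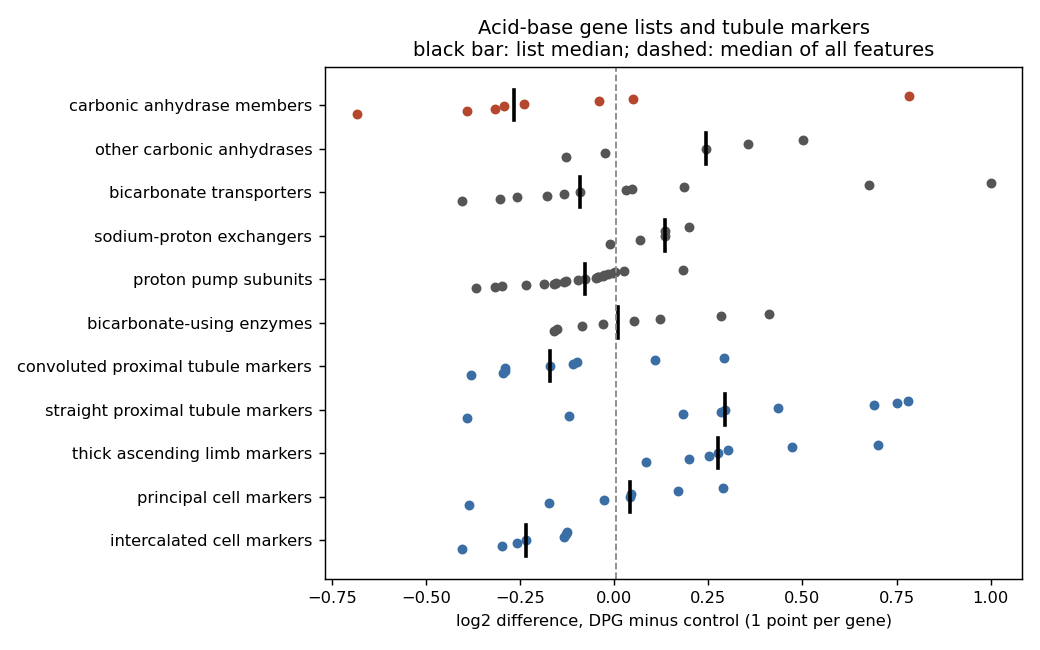
Log2 difference, DPG minus control, for each measured gene (points) of the carbonic anhydrase members, of the acid-base gene lists and of the tubule marker lists, with black bars for list medians and a dashed line for the median of all features. The median of the members lies at -0.27 and that of the other carbonic anhydrases, Car13 included, at 0.24, and straight proximal tubule markers (0.29) and thick ascending limb markers (0.28) lie to the right of convoluted proximal tubule (-0.17) and intercalated cell markers (-0.23).

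Markers of the tubule segments that hold these enzymes differed between the groups in part. Of 9 convoluted proximal tubule markers, all were measured and 7 were lower in DPG. Of these 7, 3 passed an unadjusted p of 0.05 (5.70% of all features were lower at it). Among them was the glucose transporter gene Slc5a2 at -0.29 ± 0.10 (SE, limma adjusted p = 0.353). The amino acid transporter gene Slc3a1 was higher at that threshold, with 0.29 ± 0.09 (SE, limma adjusted p = 0.336). Their summed signal overlapped, at 1258 to 1362 in DPG and 1254 to 1400 in control, while the mean shift per gene from the control mean did not, at -0.16 to -0.11 in DPG and -0.10 to 0.08 in control (log2). Straight proximal tubule markers had 7 of 9 higher, 5 of them at an unadjusted p of 0.05 (6.68% of all features were higher at it). Their summed signal was 401 to 434 in DPG, against 224 to 298 in control, most of it Slc7a13 (means of 309 and 183). Their mean shift per gene was 0.30 to 0.37 in DPG and -0.06 to 0.10 in control (log2). All 7 thick ascending limb markers were higher, 5 of them at that threshold, with sums of 834 to 913 in DPG and 713 to 771 in control. Most of each sum was Umod (means of 595 in DPG and 500 in control). The mean shift per thick ascending limb gene was 0.28 to 0.40 in DPG and -0.06 to 0.11 in control (log2). All 7 measured intercalated cell markers of 8 were lower, 3 of them at an unadjusted p of 0.05 (5.70% of all features were). Their sums were 106 to 124 in DPG and 127 to 149 in control. All of them except Foxi1 also belong to the proton pump or bicarbonate transporter lists above. The 3 past the threshold, Atp6v0d2, Slc26a4 and Atp6v1g3, were named there, so they add no separate result. Of 8 principal cell markers, 7 were measured and 4 were higher, 1 of them at an unadjusted p of 0.05 (6.68% of all features were). Their sums were 158 to 201 in DPG and 157 to 196 in control. The part of these segment markers in the lower Car4, Car12 and Car14 signals or in the higher Car5b signal was not tested.

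Markers of tissues beyond the tubule gave medians of -0.19 for adipocytes (7 of 9 measured, Lep not above background), 0.04 for skeletal muscle (6 of 9, with Myh4, Myh2 and Actn3 not above background), -0.03 for red blood cells, -0.07 for urothelium (4 of 5) and 0.06 for adrenal cortex (4 of 7). The muscle marker Ckm had 0.89 ± 0.68 (SE) on a probe that cleared background in 3 DPG rats and 2 control rats. The urothelium marker Upk3a had -0.79 ± 0.47 (SE) on a probe that cleared it in 1 DPG rat and 3 control rats. Each entered through the group where it was higher. The signs of the muscle and urothelium medians rest on these genes, so nothing is read from those medians. The adipocyte median includes Retn, described below. The adipocyte markers went both ways. Fabp4, a fatty acid carrier gene, had 1.89 ± 0.70 and the lipid droplet gene Cidec 0.56 ± 0.20, while the adiponectin gene Adipoq had -0.45 ± 0.14 and Pck1, also a proximal tubule gene, -0.29 ± 0.09 (SE, limma adjusted p from 0.338 to 0.379). Retn had 1.43 ± 0.50 on a probe that cleared background in 3 DPG rats and 1 control rat. The mean shift per adipocyte gene, Retn included, was 0.091 to 0.595 in DPG, against -0.111 to 0.088 in control (log2). Retn entered through the DPG group, so no difference between the groups is read from this shift. The summed signal, most of it Pck1, was 152 to 183 in DPG and 190 to 205 in control.

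The genes whose pattern over the 6 arrays was most like that of Car5b were Cldn16, a tight junction gene of the thick ascending limb (Pearson r = 0.995), Smarcd3, a chromatin remodelling subunit (0.993), and Gprc5a, an orphan receptor gene (0.991). Those most like Car6 were Gpx6, a glutathione peroxidase gene (0.987), Dll1, a Notch ligand gene (0.986), and the proton pump gene Atp6v1c2 (0.982). Each came from 3769 named genes with an SD of at least 0.2 over the arrays, and the 6 arrays hold both groups, so the difference between the groups enters each correlation.

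**Figure D4:**
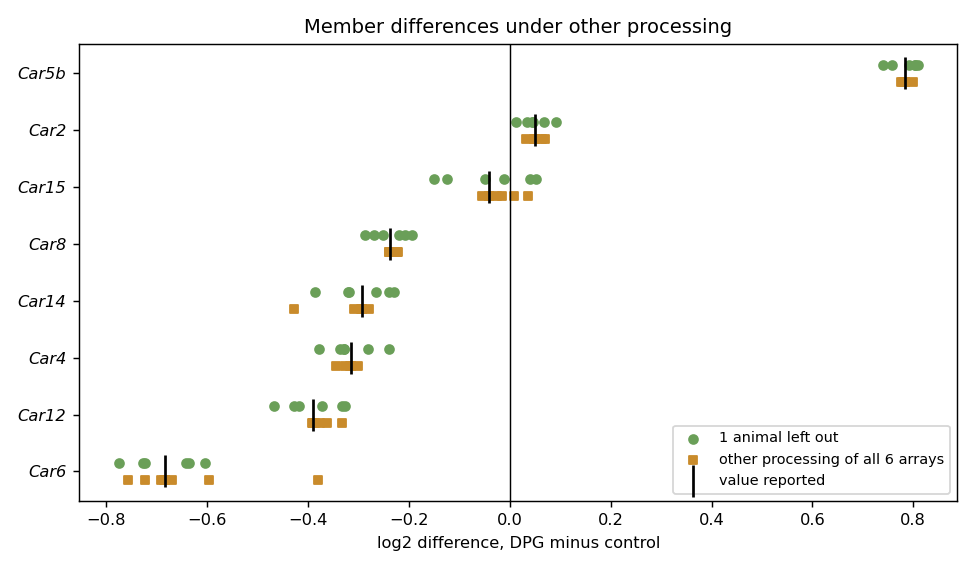
Log2 difference, DPG minus control, for each measurable member as reported (black line), with 1 animal left out (circles) and under other processing of all 6 arrays, single probes included (squares). Car5b stays between 0.74 and 0.81 and Car6 between -0.78 and -0.38, while Car15 lies on both sides of 0.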

How the data were processed

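Cy3-labelled cortex RNA from 6 rats went onto 1 Agilent array each, per the labels' protocols. The authors deposited scanner output of Agilent Feature Extraction, whose version is 10.7.1.1 in the headers of the files (10.7 in the submitters' processing notes). The intensity values used are the deposited processed signal, background-subtracted and spatially detrended on a linear scale, and, for 1 alternative, the deposited median pixel intensity of spot and local background. A deposited table of the series, also an alternative, holds each spot's ratio to roughly the array's 75th percentile. Within an array the ratio of processed signal to that table was constant, with column medians of 0.111, 0.108 and 0.112 for DPG 1 to 3 and 0.110, 0.111 and 0.114 for controls 1 to 3. Genes were not centred in it, and higher values mean brighter spots. The scaling method behind it was not given in the sources used here.

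After control spots were removed, each array's 75th percentile was subtracted from log2 signal. The filter took probes that cleared background in all 3 animals of either group (40406), less 23 with an outlier flag, and the brightest kept probe stood for a gene. Accessions named 28206 probes through a RefSeq table of GRCr8, and 33331 kept the file's identifier. DPG and control were compared over 29647 features by limma's lmFit and eBayes (limma 3.58.1 under R 4.3.3, group only, 4 residual and 1.95 prior degrees of freedom), with Benjamini-Hochberg adjustment at 0.05. With 3 animals a side, the smallest two-sided permutation p is 0.1. The number of arrays limits the precision. The fit was tested on simulated data.

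Members, lists and tests were chosen with earlier results of these data known. Named genes were all members with every probe, up to 4 genes of each acid-base list by smallest p, and the 3 genes most like the highest and the lowest member. Segment markers are named beside members only, and 1 gene that the rule takes is not reported here. Same-numbered animals did not deviate together (correlations of -0.02, -0.09 and -0.07), so the replicate number pairs nothing. Alternatives were normexp, median and quantile scaling, both other filters, spots with outlier flags retained, averaging of a gene's probes, each probe separately, an intensity trend with robust variance, the replicate block, the deposited table, and each animal left out. A slide block could not be fitted, since each slide held 1 group.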

Additional observations from a re-analysis of the deposited data

How the results depend on the processing

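The same 6 members stood apart between the groups in each of the 17 alternatives, and Car2 joined them without DPG 1. The count thus ran from 6 to 7 with an animal left out. Most alternatives could not have shown otherwise. Leaving out an animal cannot make separated groups overlap. The filters, flags, variance trend, replicate block and deposited table left the member values the same or nearly so. Only normexp, median or quantile scaling and the handling of a gene's probes could have changed this result. The sign of the difference held in every alternative for 7 of the 8 measurable members. Car15 changed sign in 4, with 0.04 under normexp, 0.01 on its other probe, 0.04 without DPG 1 and 0.05 without control 1. Car14 was -0.43 under normexp, and the dimmest Car6 probe gave -0.38. With an animal left out, the count past an adjusted p of 0.05 ran from 0 to 1. It was 1 without DPG 2 (transcript XM_344619) and without control 2 (probe A_64_P009237), neither a member and both named after their values were seen. The count past an unadjusted p of 0.05 ran from 2569 to 3942, and the number of features with no overlap ran from 8301 to 10288, where fewer arrays overlap less by construction. Over all acid-base lists, 11 genes passed an unadjusted p of 0.05, which 12.4% of all features passed. This count includes Car13, which entered through the DPG group. The lists held 5, 11, 21, 5 and 8 measured genes, in the order given above. The count was between 5 (without DPG 1) and 11 with an animal left out. Under other processing of all 6 arrays it ran from 9 to 13. It was 13 with normexp correction and with the intensity trend and robust variance. It was 9 with the replicate block, for which the numbers gave no pairing. Under the block the count past the adjusted threshold was also 0. Dim probes such as those of Slc4a7 and Car13 limit what can be measured.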
